A study of Bos taurus with 30 samples.

Results

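The expression of 10 prostaglandin genes was examined in bovine endometrial cells grown on a 2-chamber chip under flow for 72 h. They were PLA2G4A, PTGS1, PTGS2, PTGES, PTGIS, AKR1B1, SLCO2A1, HPGD, PTGER2 and PTGER4, chosen by gene symbol from the 27607 genes of the count tables. PTGER4 and the transporter SLCO2A1 were higher in epithelial cells in all 5 conditions and PTGS1 and PTGER2 in the 3 of the insulin experiment. PTGIS was higher in stromal cells in all 5 and PTGS2 in both conditions of the glucose experiment. Neither 50 mM glucose nor insulin at 1 or 10 ng/mL gave a called difference for any gene tested. Some of the genes had too few counts to be tested for a treatment. At 50 mM glucose the differences between cell types were no longer called when libraries were not paired by replicate or when replicate 1 was left out. Without replicate 1, 0 of 13351 protein-coding genes were called there. The PTGS2 difference at 5 mM glucose was also no longer called when libraries were not paired.

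Epithelial cells occupied the upper chamber and stromal cells the underside of the membrane facing the lower chamber, both being primary cells of uteri from nonpregnant cows (Bos taurus) in the early luteal phase. In the glucose experiment the medium held 5 or 50 mM glucose. In the insulin experiment it held vehicle (acetic acid in PBS), 1 ng/mL insulin or 10 ng/mL insulin, all with 5 mM glucose. Each of the 10 groups had 3 libraries, termed replicates 1 to 3, which gave 30 libraries of strand-specific RNA-seq. The age of the cows is not given, and a given replicate number in the glucose and insulin experiments is not stated to be the same animal.

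Prostaglandins are made from arachidonic acid, which phospholipase A2 frees from membranes. The cyclooxygenases PTGS1 and PTGS2 turn it into prostaglandin H2, which terminal synthases convert to the individual prostaglandins. In the cow, endometrial prostaglandin F2 alpha and prostaglandin E2 take part in the control of the lifespan of the corpus luteum and in the maternal recognition of pregnancy. Prostaglandins cross membranes on transporters, act on G protein-coupled receptors and are inactivated by a dehydrogenase.

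Total counts ranged from 13493503 to 16647701 in the 12 glucose libraries and from 8826470 to 13214728 in the 18 insulin libraries. Levels are given as CPM, the usual scaling of counts to the library total, and since CPM does not correct for transcript length, they are compared between libraries and not between genes. The labels were checked against 25 epithelial and 23 stromal markers. KRT18, an epithelial keratin, ranged from 440 to 1788 CPM in epithelial libraries and from 0 to 336 CPM in stromal libraries. VIM, the intermediate filament of mesenchymal cells, ranged from 385 to 1015 CPM in epithelial and from 1591 to 4449 CPM in stromal libraries. The summed epithelial markers were at 9823 to 18227 CPM in epithelial libraries, at 23.0 to 429 CPM in the stromal libraries of the insulin experiment and at 100 to 6475 CPM in those of the glucose experiment. Replicate 3 of the stromal cells at 50 mM glucose stood apart. Its epithelial markers had a median of 63.0% of their mean epithelial level, against 0 to 13.7% in the other 14 stromal libraries. Stromal markers in epithelial libraries had medians of 1.38 to 13.6% of their stromal level, with summed levels of 1445 to 8488 CPM against 28085 to 99515 CPM in stromal libraries. No marker of either list was at 0 in every library of a cell type and experiment. Of the other cell types, summed endothelial markers reached at most 83.3 CPM and leukocyte markers at most 19.7 CPM, while smooth muscle markers were at 571 to 4187 CPM in stromal and 48.5 to 393 CPM in epithelial libraries. In such bulk libraries, fewer cells of a type and less RNA per cell cannot be told apart.

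**Figure D1:**
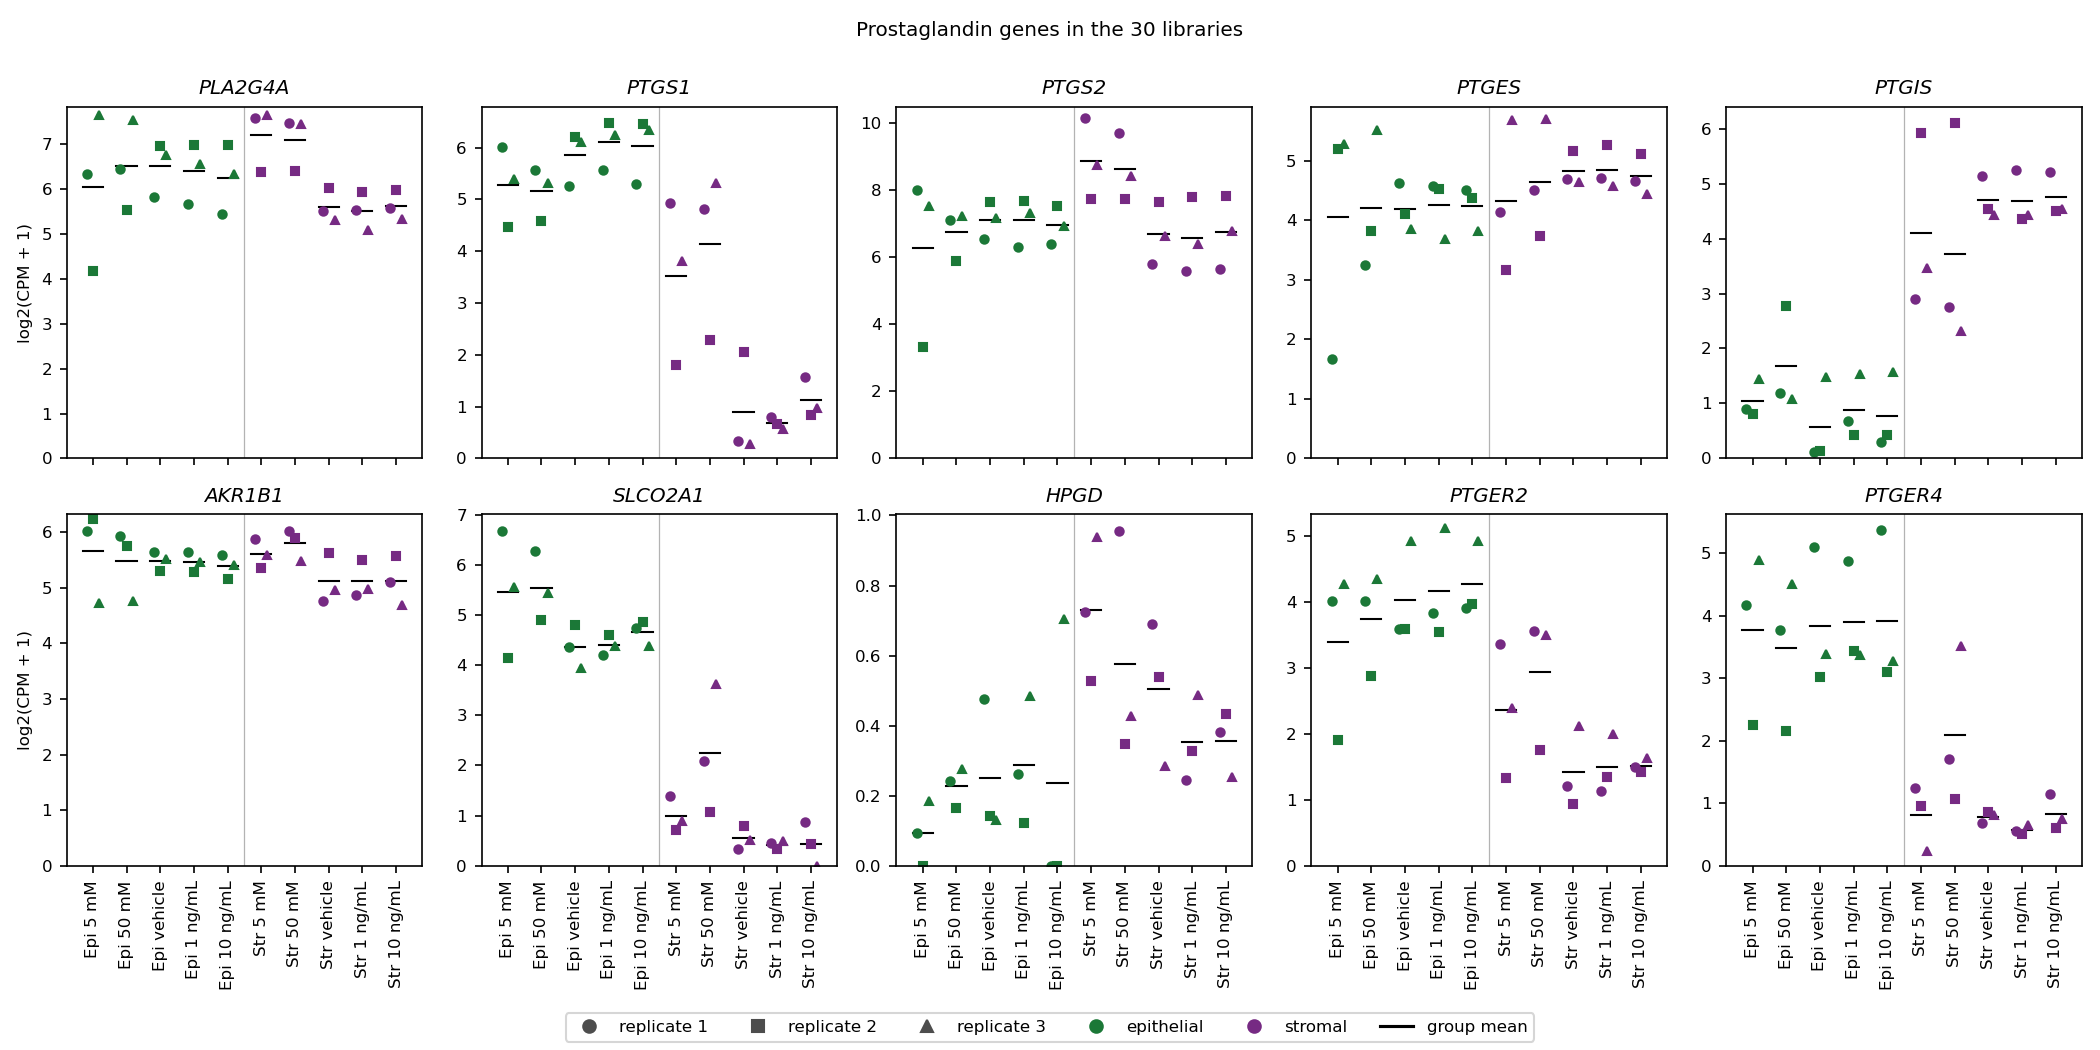
Level of each of the 10 genes as log2(CPM + 1) in every library, with the 5 epithelial groups on the left and the 5 stromal groups on the right of each panel. Points are libraries (shape: replicate number), bars are group means, and the vertical scale differs between panels. By group mean, PTGS1, SLCO2A1, PTGER2 and PTGER4 lie higher in epithelial groups and PTGIS in stromal groups. The cell types overlap for PTGS1 and PTGER2 at 5 and 50 mM glucose, and for PTGER4 and PTGIS at 50 mM.

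The comparison of the cell types asked where each step of the pathway was expressed, and was made separately in each of the 5 conditions. A gene was called where the adjusted p of edgeR's quasi-likelihood test was under 0.05 and the log2 fold change was beyond 0.1. HPGD had too few counts to pass the low-count filter, which left 9 of the 10 genes. With vehicle, 6 genes were called (5 for epithelial and 1 for stromal cells as the higher), where 55.9% of all 12876 protein-coding genes tested were called (28.2% and 27.8% in the respective directions). With 1 ng/mL insulin 7 were called (5 and 2) beside 59.4% of all genes (29.9% and 29.5%), and with 10 ng/mL insulin 5 (4 and 1) beside 54.9% (27.3% and 27.6%). At 5 mM glucose 4 genes were called (2 and 2) beside 21.5% of all genes (10.8% and 10.7%), and at 50 mM glucose 4 (2 and 2) beside 17.6% (6.57% and 11.0%). The libraries of the 2 cell types did not overlap for 6, 6, 5, 3 and 2 of the genes in the same order of conditions, beside 66.0%, 68.0%, 66.3%, 45.0% and 35.5% of all genes. SLCO2A1, PTGER4 and PTGIS were called in all 5 conditions. The 4 calls at 50 mM glucose were all lost without the replicate block and without replicate 1. Those fits called 1052 of 13235 and 0 of 13351 protein-coding genes.

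PLA2G4A (ENSBTAG00000013298), the cytosolic phospholipase A2 that frees arachidonic acid, was called higher in epithelial cells with vehicle and with 1 ng/mL insulin and was not called in the other 3 conditions. In vehicle it was at 55.9, 124 and 107 CPM in epithelial replicates 1, 2 and 3 and at 44.8, 63.8 and 38.5 CPM in stromal replicates. With 1 ng/mL insulin the epithelial libraries were at 49.8, 126 and 93.8 CPM and the stromal libraries at 45.4, 60.2 and 33.2 CPM. At 10 ng/mL they were at 42.9, 126 and 79.8 CPM and at 46.8, 62.4 and 39.1 CPM. The epithelial library was the higher of the pair in all replicates of vehicle and 1 ng/mL insulin, although the ranges overlapped. Epithelial expression exceeded stromal expression by 0.84 on the log2 scale in vehicle (SE 0.195, edgeR adjusted p = 0.0204) and by 0.80 with 1 ng/mL insulin (SE 0.247, edgeR adjusted p = 0.0374), while the difference of 0.54 with 10 ng/mL insulin was not called (SE 0.230, edgeR adjusted p = 0.109) except in the joint fit of the 18 insulin libraries (edgeR adjusted p = 0.0492) and without replicate 1. Both calls were lost without the replicate block (edgeR adjusted p = 0.0585 and 0.0764), and without replicate 2 or replicate 3. In the glucose experiment the 5 mM libraries were at 80.2, 17.1 and 200 CPM in epithelial cells and at 190, 81.9 and 201 CPM in stromal cells, and the 50 mM libraries at 86.3, 45.3 and 186 CPM and at 176, 83.7 and 173 CPM. Here the epithelial minus stromal log2 difference was -1.39 at 5 mM (SE 0.479, edgeR adjusted p = 0.10) and -0.76 at 50 mM (SE 0.289, edgeR adjusted p = 0.127), neither of which was called. DESeq2 called the former (-1.38, DESeq2 adjusted p = 0.0212; 28.2% of all genes called), and both were called without replicate 3 (-1.94 and -1.14, edgeR adjusted p = 0.0480 and 0.0122).

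PTGS1 (ENSBTAG00000006716), the cyclooxygenase present in most tissues without induction, was an epithelial transcript in the insulin experiment. Epithelial replicates 1, 2 and 3 were at 37.5, 72.5 and 68.4 CPM with vehicle, 46.7, 87.9 and 74.9 CPM with 1 ng/mL and 38.4, 86.4 and 80.4 CPM with 10 ng/mL insulin. The stromal libraries were at 0.262, 3.17 and 0.217 CPM, 0.741, 0.594 and 0.484 CPM, and 1.97, 0.789 and 0.961 CPM. No stromal library came near an epithelial library. The log2 differences were 5.68 (SE 0.618, edgeR adjusted p = 0.00256), 6.71 (SE 0.243, edgeR adjusted p = 4.37e-05) and 5.55 (SE 0.479, edgeR adjusted p = 0.00185). Without replicate 2 the vehicle value was 7.58, and without replicate 1 the 10 ng/mL value was 6.39. The stromal vehicle library of replicate 2, at 3.17 CPM, was also the vehicle library in which epithelial markers were highest, at 3.72% of their epithelial level against 0.0913% and 0.0501% in the other two.

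In the glucose experiment the stromal libraries held more PTGS1. They were at 29.5, 2.51 and 13.1 CPM at 5 mM and 27.0, 3.89 and 38.8 CPM at 50 mM, whereas epithelial libraries were at 63.3, 21.0 and 41.1 CPM and 46.5, 22.9 and 38.9 CPM. The difference was 1.68 at 5 mM (SE 0.498, edgeR adjusted p = 0.0639) and 0.89 at 50 mM (SE 0.496, edgeR adjusted p = 0.260), and neither was called. DESeq2 called the difference at 5 mM (1.69, DESeq2 adjusted p = 0.00665), as did the fit without the low-count filter, the fits without replicate 1 or replicate 2, and the joint fit of the 12 glucose libraries. In the stromal 5 mM library of replicate 3, PTGS1 was at 33.7% of its mean epithelial level while the epithelial markers had a median of 0.0772%, and in that of replicate 2 it was at 6.45% beside 0.0167%. In the stromal 50 mM library of replicate 3 it was at 99.6% beside 63.0%.

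PTGS2 (ENSBTAG00000014127), the inducible cyclooxygenase, was higher in stromal than epithelial cells in both conditions of the glucose experiment. At 5 mM glucose it was at 1123, 210 and 426 CPM in stromal replicates 1, 2 and 3 and at 253, 8.89 and 183 CPM in epithelial replicates. At 50 mM it was at 826, 210 and 344 CPM and at 137, 57.8 and 148 CPM. The stromal library was the higher of the pair in all 6 pairs, and the ranges overlapped at 5 mM but not at 50 mM. Stromal expression was 7.0-fold that of epithelial cells at 5 mM (log2 difference -2.81, SE 0.694, edgeR adjusted p = 0.0364) and 4.12-fold at 50 mM (-2.04, SE 0.338, edgeR adjusted p = 0.0189). The value at 5 mM was -1.94 without replicate 2 and -3.54 without replicate 3. Without the replicate block the call was lost at 5 mM (-2.27, edgeR adjusted p = 0.178) and at 50 mM (-2.24, edgeR adjusted p = 0.0774), and at 50 mM also without replicate 1 (-1.63, edgeR adjusted p = 0.106) and in the joint fit (-2.03, edgeR adjusted p = 0.0561). In the insulin experiment epithelial libraries were at 91.2, 197 and 143 CPM with vehicle, 78.3, 204 and 158 CPM with 1 ng/mL and 82.8, 183 and 120 CPM with 10 ng/mL insulin. The stromal libraries were at 54.9, 201 and 97.1 CPM, 46.9, 219 and 82.2 CPM, and 48.9, 227 and 108 CPM. The log2 differences of 0.34, 0.41 and 0.09 were not called (edgeR adjusted p = 0.205, 0.141 and 0.788), the second being called without replicate 2 (0.72, edgeR adjusted p = 0.00466). Whether the experiments differed was not tested, and the experiment and its batch of libraries cannot be told apart.

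Among the terminal synthases, PTGIS (ENSBTAG00000017537), which makes prostacyclin, was stromal. In the insulin experiment the stromal libraries ranged from 19.4 to 37.1 CPM and the epithelial libraries from 0.0784 to 1.99 CPM. The replicates were at 34.4, 22.2 and 20.6 CPM with vehicle, 37.1, 19.4 and 20.5 CPM with 1 ng/mL and 36.2, 21.7 and 22.3 CPM with 10 ng/mL insulin in stromal cells. The epithelial minus stromal log2 difference was -5.47 with vehicle (SE 0.794, edgeR adjusted p = 0.00513), -4.87 with 1 ng/mL (SE 0.470, edgeR adjusted p = 0.000642) and -5.08 with 10 ng/mL insulin (SE 0.624, edgeR adjusted p = 0.00363). Without replicate 3, which held 19 of the epithelial counts in each condition against 1 to 6 in the other libraries, these values were -8.16, -5.93 and -6.66, and at such counts they depend on the prior count. In the glucose experiment replicate 2 held most of the stromal signal, with 6.45, 59.7 and 10.0 CPM at 5 mM and 5.76, 67.4 and 4.0 CPM at 50 mM. Epithelial libraries were at 0.865, 0.741 and 1.71 CPM and at 1.28, 5.83 and 1.12 CPM. Stromal expression was 16.3-fold higher at 5 mM (-4.03, SE 0.830, edgeR adjusted p = 0.0209) and 6.87-fold higher at 50 mM (-2.78, SE 0.389, edgeR adjusted p = 0.0112). Without replicate 2 the differences were -2.95 and -2.18, and without replicate 3 that at 5 mM was -4.79. The stromal markers in epithelial libraries, at 1.38 to 13.6% of their stromal level, were accompanied by PTGIS at 0.301 to 22.8% of its stromal level, and the part of such carry-over in these values was not tested.

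PTGES (ENSBTAG00000019453), the microsomal prostaglandin E synthase, was called lower in epithelial than stromal cells with 1 ng/mL insulin. There the epithelial libraries were at 22.8, 22.1 and 11.8 CPM and the stromal libraries at 25.3, 37.6 and 22.8 CPM (log2 difference -0.72, SE 0.194, edgeR adjusted p = 0.0232). The value was negative in all 5 conditions, at -0.74 with vehicle, -0.62 with 10 ng/mL insulin, -0.59 at 5 mM and -0.62 at 50 mM glucose (edgeR adjusted p = 0.0714, 0.0516, 0.750 and 0.261). The 1 ng/mL call was lost without the replicate block (edgeR adjusted p = 0.0897) and without replicate 2 or 3, and the vehicle and 10 ng/mL values were called in the joint fit (edgeR adjusted p = 0.00923 and 0.0204). Between replicates of the glucose experiment PTGES varied widely, from 2.20 to 44.7 CPM in epithelial and from 7.92 to 51.1 CPM in stromal libraries.

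AKR1B1 (ENSBTAG00000009902), aldose reductase, reduces glucose to sorbitol and also has prostaglandin F synthase activity in bovine endometrium. It was called in none of the 5 conditions. Its levels overlapped in every condition, from 25.4 to 74.7 CPM in epithelial and from 24.7 to 63.9 CPM in stromal libraries. The epithelial minus stromal log2 differences ran from -0.47 (50 mM glucose, SE 0.174, edgeR adjusted p = 0.118) to 0.30 (vehicle, SE 0.285, edgeR adjusted p = 0.416). With 1 ng/mL insulin it was called without replicate 2 (0.53, edgeR adjusted p = 0.0305). In the insulin experiment the epithelial level was the higher in replicates 1 and 3 and the lower in replicate 2.

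SLCO2A1 (ENSBTAG00000001324), the prostaglandin transporter that carries prostaglandins into cells, was epithelial in all 5 conditions. Epithelial replicates 1, 2 and 3 were at 19.6, 26.8 and 14.3 CPM with vehicle, 17.3, 23.4 and 19.9 CPM with 1 ng/mL and 25.8, 28.0 and 19.9 CPM with 10 ng/mL insulin. The stromal libraries of the insulin experiment were all between 0 and 0.832 CPM. The log2 differences were 5.34 (SE 0.299, edgeR adjusted p = 0.000936), 5.72 (SE 0.265, edgeR adjusted p = 7.76e-05) and 5.82 (SE 0.521, edgeR adjusted p = 0.00196), the last being 6.83 without replicate 1. At 5 mM glucose the epithelial libraries were at 101, 16.7 and 46.2 CPM and the stromal libraries at 1.63, 0.629 and 0.854 CPM (5.29, SE 0.433, edgeR adjusted p = 0.00543). At 50 mM they were at 76.3, 28.8 and 42.3 CPM and at 3.25, 1.09 and 11.3 CPM (3.47, SE 0.610, edgeR adjusted p = 0.0222), with 4.41 without replicate 3. The value of 11.3 CPM came from the stromal library of replicate 3, where SLCO2A1 was at 21.8% of its epithelial level and the epithelial markers at 63.0%. HPGD (ENSBTAG00000025942), the dehydrogenase that inactivates prostaglandins, had 0 to 15 counts per library. Its count was at most 3 in 6 of 6 epithelial libraries of the glucose experiment and 6 of 9 of the insulin experiment, against 0 of 6 and 4 of 9 stromal libraries. Epithelial libraries of the glucose experiment held 0 to 3 counts and stromal libraries 4 to 15, without overlap, and in the insulin experiment they held 0 to 6 and 2 to 7. Fitted without the low-count filter, the difference was called in none of the 5 conditions, with log2 values from -3.46 at 5 mM glucose (edgeR adjusted p = 0.0625) to -0.46 with 1 ng/mL insulin (edgeR adjusted p = 0.691).

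The prostaglandin E2 receptors PTGER2 (ENSBTAG00000002163) and PTGER4 (ENSBTAG00000014972), both of which signal through cyclic AMP, were the higher in epithelial cells. With vehicle PTGER2 was at 11.1, 11.0 and 29.3 CPM in epithelial and at 1.31, 0.905 and 3.36 CPM in stromal replicates. With 1 ng/mL insulin it was at 13.2, 10.7 and 33.8 CPM and at 1.20, 1.53 and 2.99 CPM. With 10 ng/mL insulin it was at 14.1, 14.7 and 29.4 CPM and at 1.82, 1.67 and 2.11 CPM. No stromal library reached an epithelial library, and the log2 differences were 3.14, 3.15 and 3.19 (SE 0.203, 0.213 and 0.215; edgeR adjusted p = 0.00106, 0.000215 and 0.00138). In the glucose experiment the levels overlapped. PTGER2 was at 15.1, 2.74 and 18.4 CPM in epithelial and 9.32, 1.51 and 4.27 CPM in stromal cells at 5 mM, and at 15.1, 6.37 and 19.3 CPM and 10.8, 2.39 and 10.3 CPM at 50 mM. The log2 differences of 1.00 and 0.75 (SE 0.456 and 0.271) were not called (edgeR adjusted p = 0.193 and 0.111), and the joint fit called the first (0.98, edgeR adjusted p = 0.0482). In the stromal library of replicate 1 at 5 mM, PTGER2 was at 72.6% of its epithelial level beside epithelial markers at 6.04%.

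PTGER4 was at 33.2, 7.13 and 9.47 CPM in epithelial vehicle replicates, 28.3, 9.83 and 9.35 CPM with 1 ng/mL and 40.3, 7.59 and 8.71 CPM with 10 ng/mL insulin. The stromal libraries of the insulin experiment were all between 0.424 and 1.21 CPM. The cell types did not overlap, and replicate 1 was the highest of the epithelial replicates in every condition of that experiment. The log2 differences were 4.22 (SE 0.585, edgeR adjusted p = 0.00451), 4.76 (SE 0.385, edgeR adjusted p = 0.000364) and 4.30 (SE 0.386, edgeR adjusted p = 0.00198). Without replicate 1 they were 3.20, 4.11 and 3.57, and without replicate 2 the first was 4.83. At 5 mM glucose PTGER4 was at 17, 3.78 and 28.8 CPM in epithelial and 1.37, 0.943 and 0.183 CPM in stromal cells (3.79, SE 0.998, edgeR adjusted p = 0.0443), with 2.64 without replicate 3 and 4.71 without replicate 2. At 50 mM it was at 12.7, 3.48 and 21.7 CPM and at 2.25, 1.09 and 10.4 CPM (1.56, SE 0.307, edgeR adjusted p = 0.0296). The stromal 10.4 CPM was in replicate 3, where PTGER4 was at 71.1% of its epithelial level beside epithelial markers at 63.0%. Left out without the block, that library gave a larger difference that was not called (2.62, edgeR adjusted p = 0.0703).

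**Figure D2:**
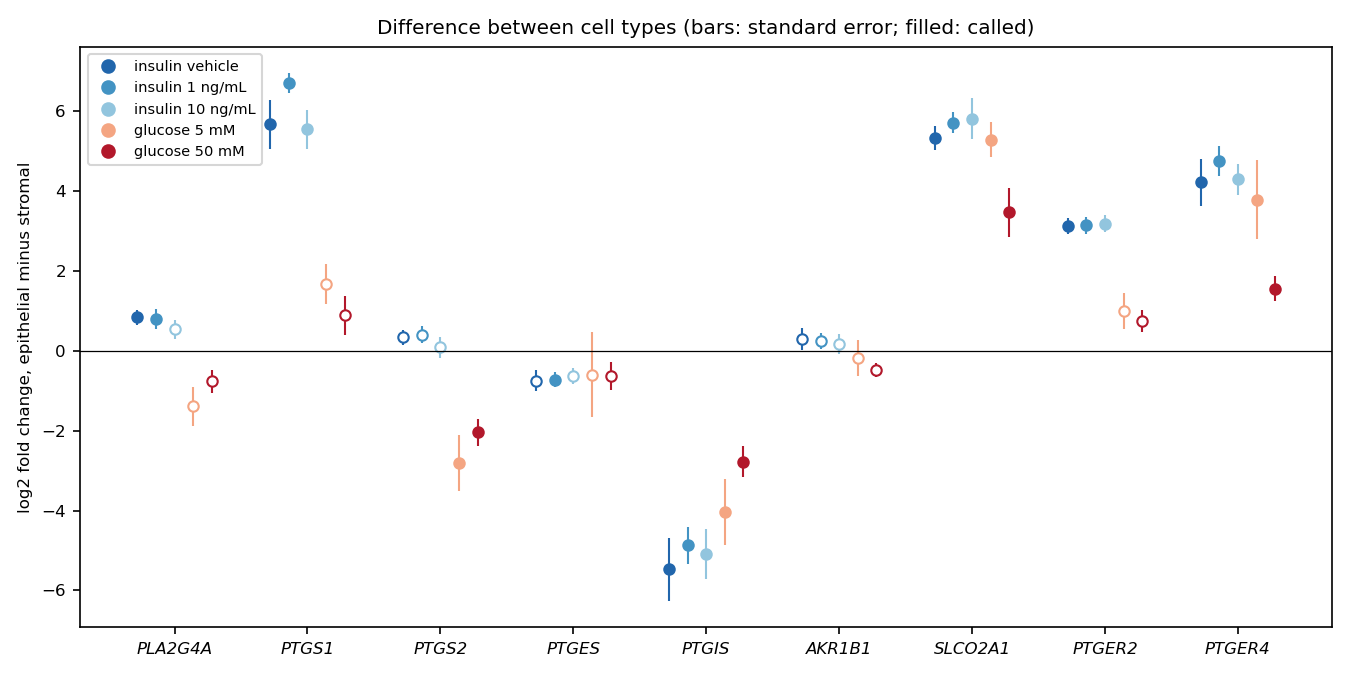
Log2 fold change of epithelial minus stromal expression of the 9 tested genes in the 5 conditions, with standard errors as bars and called values as filled points. PTGIS lies below 0 and SLCO2A1 and PTGER4 above 0 as filled points throughout, while PTGS1 and PTGER2 are filled in the insulin experiment only.

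**Figure D3:**
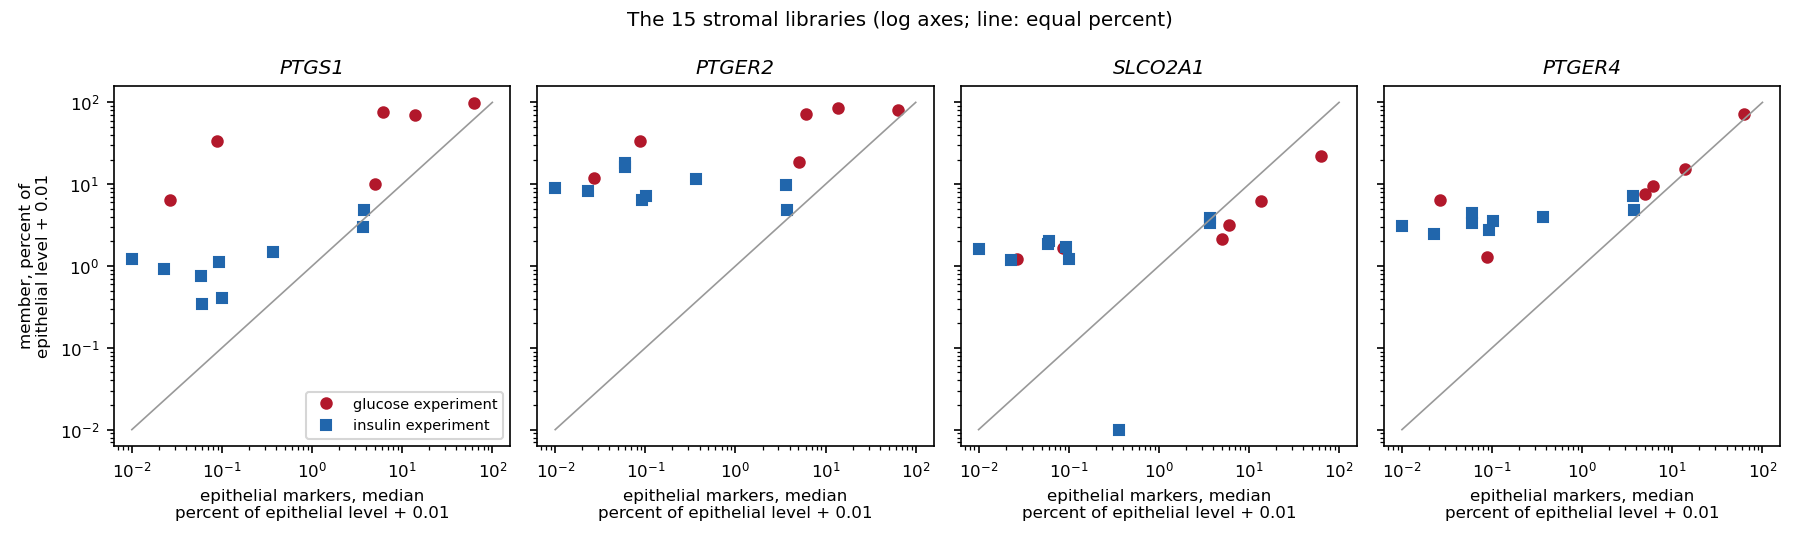
Level of 4 genes in each of the 15 stromal libraries as a percent of the mean epithelial level (vertical) against the median percent of the 25 epithelial markers (horizontal), on log axes with 0.01 added. The libraries above the line of equal percent number 14 of 15 for PTGS1, 15 for PTGER2, 9 for SLCO2A1 and 15 for PTGER4, and the 50 mM library of replicate 3 is the point farthest right, at 63.0%.

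The 10 groups were ordered by mean for each gene, which places the groups of closest mean side by side. Of 9 neighbouring pairs, 0 were separated without overlap for PLA2G4A, PTGS2, PTGES, AKR1B1, HPGD and PTGER2, 1 for PTGS1, PTGIS and PTGER4, and 2 for SLCO2A1. For PTGS1 that pair was stromal 5 mM glucose above stromal 10 ng/mL insulin. That pair lies across the experiments, which the order mixes, and the experiment and its batch of libraries cannot be told apart. For PTGER4 the pair was stromal vehicle (0.612 to 0.815 CPM) above stromal 1 ng/mL insulin (0.424 to 0.565 CPM). It lies within the insulin experiment, but PTGER4 had too few counts there to be tested. The share of such separated neighbours over all genes was not computed, so these numbers of separated pairs are a description only.

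The replicate number held most of the spread of most of the genes within a cell type and experiment. Over all expressed genes (mean CPM of at least 5), the median share of the sum of squares of log2(CPM + 1) that followed the replicate number was 58.5 to 75.4%. For PTGS2 it was 98.2% in stromal cells of the insulin experiment, where the 3 libraries of replicate 1 lay between 46.9 and 54.9 CPM, those of replicate 2 between 201 and 227 CPM and those of replicate 3 between 82.2 and 108 CPM. The share was 97.1% in stromal cells of the glucose experiment and 95.1% in epithelial cells of the insulin experiment. PTGIS followed the replicate number to 97.0% in stromal cells of the insulin experiment, PLA2G4A to 95.6% there, and PTGER4 to 96.8% in the epithelial cells. The share was low for PTGER4 (9.05%) and SLCO2A1 (15.5%) in stromal cells of the insulin experiment, which lay between 0 and 1.21 CPM, but was 92.5% for PTGIS in the epithelial cells, at 0.0784 to 1.99 CPM. In stromal cells of the glucose experiment, treatment held 40.1% for SLCO2A1 and 39.5% for PTGER4, against 32.3% and 12.1% for the replicate number. The median share of treatment over all expressed genes was 8.49% there. At 50 mM, replicate 3, with epithelial markers at 63.0%, held SLCO2A1 at 11.3 CPM against 3.25 and 1.09 CPM in replicates 1 and 2. It held PTGER4 at 10.4 CPM against 2.25 and 1.09 CPM, and the part of this library in the treatment share was not tested. PTGS2 was less ordered in epithelial cells of the glucose experiment (74.6%), where replicate 2 was at 8.89 CPM at 5 mM and at 57.8 CPM at 50 mM.

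**Figure D4:**
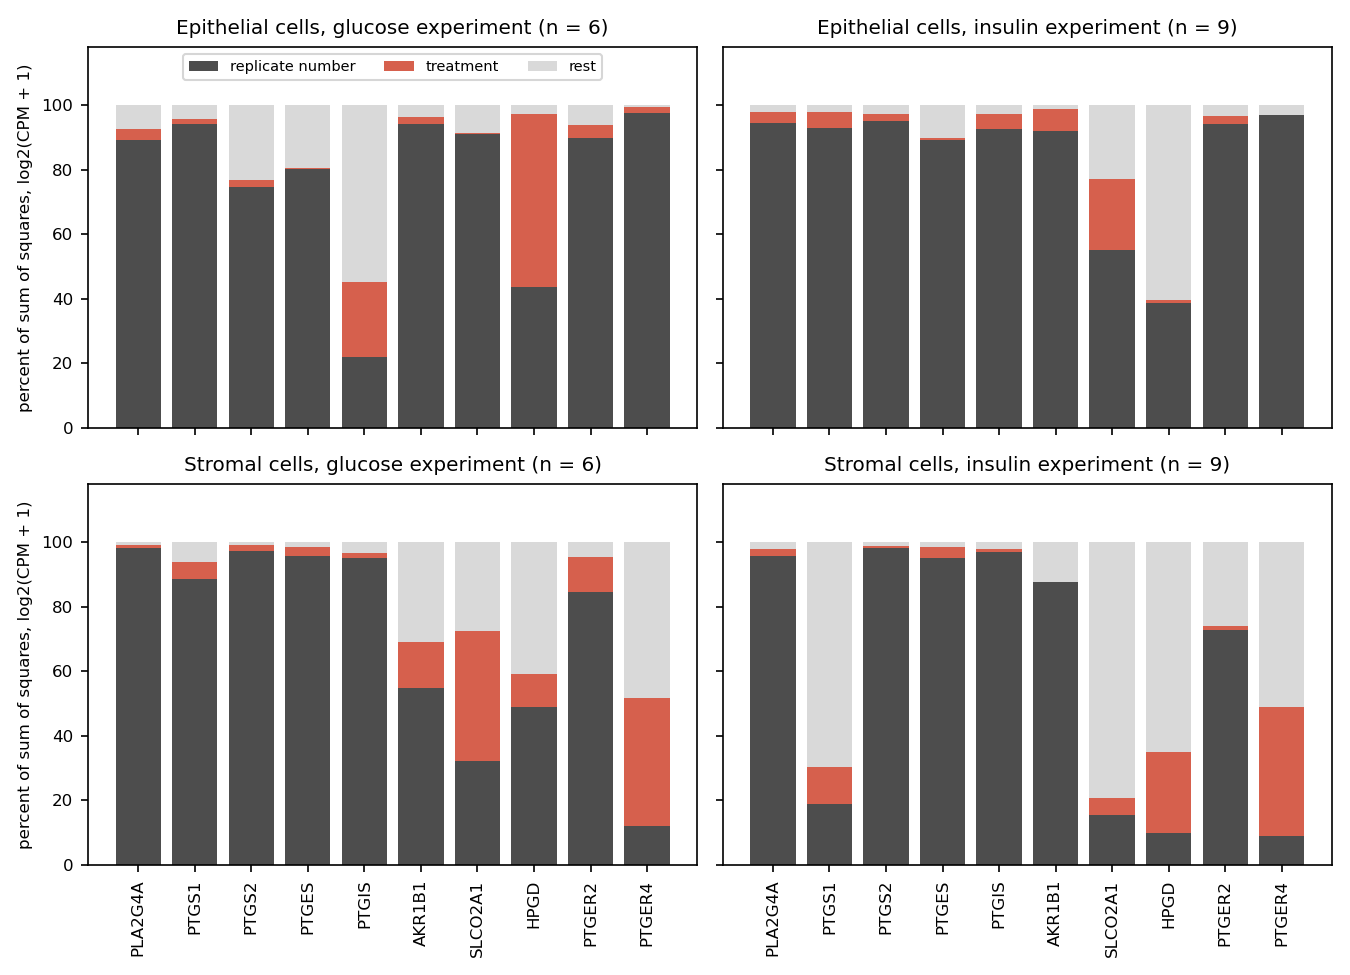
Share of the sum of squares of log2(CPM + 1) of each gene that followed the replicate number, the treatment or neither, in percent, in the 6 glucose or 9 insulin libraries of each cell type. The dark bars of the replicate number make up most of the bars of genes with substantial levels, such as stromal PTGS2 in the insulin experiment at 98.2%.

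The glucose comparison, 50 against 5 mM, addressed the effect of high glucose on each cell type. No gene of the 10 was called in either cell type, as was 0% of the 13055 protein-coding genes tested in epithelial cells and of the 13035 tested in stromal cells. At an unadjusted p under 0.05 there were 0 of the genes in both, beside 1.54% and 4.96% of all genes, and DESeq2 called none of them, while it called 0% of all genes in epithelial cells and 1.30% (169 genes, 167 of them higher at 50 mM) in stromal cells. In epithelial cells the 2 genes with the smallest p were PLA2G4A (log2 difference of 50 minus 5 mM 0.46, SE 0.337, edgeR adjusted p = 0.804) and PTGIS (0.98, SE 0.738, edgeR adjusted p = 0.804). The other tested genes ran from -0.32 to 0.40, and HPGD had too few counts to be tested. Replicate 2 of the epithelial cells at 5 mM stood apart over all genes, with a chi-square per degree of freedom of 341 and 340 to replicates 1 and 3, against 86.4 between those. Without replicate 2, PTGIS was at -0.03 and PTGS2 was called (-0.57, edgeR adjusted p = 0.0204), in a fit that called 218 of 13218 genes. In the main fit PTGS2 had the opposite sign (0.39, SE 0.721) and was higher at 50 mM in 1 of 3 pairs. In stromal cells all 10 genes were tested. PTGER2 was higher by 0.65 in log2 units (SE 0.243, unadjusted p of edgeR 0.0525) and SLCO2A1 by 1.82 (SE 0.697, unadjusted p of edgeR 0.0558), with an edgeR adjusted p of 0.696 for each. For both, the library at 50 mM was the higher in 3 of 3 pairs. Epithelial markers were also higher at 50 than at 5 mM in all 3 stromal pairs, at 13.7 against 6.04%, 5.00 against 0.0167% and 63.0 against 0.0772% of their epithelial level, and their part in these values was not tested. The median log2 difference over the genes tested was 0.19 in epithelial and 0.20 in stromal cells, against 0.01 and -0.03 over all genes. Values above 0 numbered 6 of 9 in epithelial and 6 of 10 in stromal cells, and whether these medians differ from those of all genes was not tested. The other 8 stromal genes ran from -0.49 (HPGD) to 1.84 (PTGER4).

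Insulin against vehicle asked whether the hormone alters each cell type. In the insulin comparisons of epithelial cells, PTGIS and HPGD had too few counts to be tested. None of the 8 genes tested in epithelial cells was called at 1 ng/mL, where 0% of 12464 genes were, nor at 10 ng/mL, where 0.113% of 12373 genes were. In the unadjusted counts, 1 of the 8 at 1 ng/mL and 4 of the 8 at 10 ng/mL had p under 0.05, beside 2.87% and 6.78% of all genes tested. DESeq2 called none of the 8, and 0% of all genes, at either dose. PTGS1 was the gene at 1 ng/mL. Its epithelial libraries went from 37.5, 72.5 and 68.4 CPM with vehicle to 46.7, 87.9 and 74.9 CPM, higher in 3 of 3 pairs with overlapping ranges (log2 difference 0.24, SE 0.0583, unadjusted p of edgeR 0.000580, edgeR adjusted p = 0.940). Next was PLA2G4A (-0.11, SE 0.0562, edgeR adjusted p = 1.00).

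At 10 ng/mL the 4 genes were PLA2G4A, PTGS2, PTGS1 and SLCO2A1. PLA2G4A went from 55.9, 124 and 107 CPM to 42.9, 126 and 79.8 CPM, lower in replicates 1 and 3 (-0.24, SE 0.0620, edgeR adjusted p = 0.165). It was called without replicate 2 (-0.41, edgeR adjusted p = 1.40e-06), where 68 of 12680 genes were, and without the low-count filter (-0.25, edgeR adjusted p = 0.00665), where 41 of 15439 were. PTGS2 was lower in 3 of 3 pairs (-0.17, SE 0.0456, edgeR adjusted p = 0.193), at 82.8, 183 and 120 CPM against 91.2, 197 and 143 CPM. PTGS1 was higher in 3 of 3 pairs (0.18, SE 0.0585, edgeR adjusted p = 0.396) and was called without replicate 1 (0.25, edgeR adjusted p = 0.0478; 32 of 12610 genes called). SLCO2A1 was higher in 3 of 3 pairs, at 25.8, 28.0 and 19.9 CPM against 19.6, 26.8 and 14.3 CPM (0.29, SE 0.0923, edgeR adjusted p = 0.414), and was called without replicate 2 (0.43, edgeR adjusted p = 0.0450). The ranges of the 2 groups overlapped for all 4, and the fits compare libraries within replicate numbers. The 1 and 10 ng/mL comparisons share their vehicle libraries.

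Between 10 and 1 ng/mL in epithelial cells, 0 of 8 genes were called, as was 0% of 12396 genes. SLCO2A1 (0.28, SE 0.105, higher in 3 of 3 pairs), PTGS2 (-0.18, SE 0.0677) and PLA2G4A (-0.14, SE 0.0573) had an unadjusted p under 0.05, beside 4.29% of all genes, and an edgeR adjusted p of 0.983. PTGS2 was called without replicate 1 (-0.28, edgeR adjusted p = 0.00376; 19 of 12616 genes called). The 3 stromal insulin comparisons called 0 of the 6 or 7 genes tested, beside 0% of 12228 and 12290 genes against vehicle and 0.0244% of 12281 genes between the doses. None had an unadjusted p under 0.05, beside 5.03%, 2.73% and 3.68% of all genes, and PTGS2, among the genes of smallest p in each, was at -0.07 (1 ng/mL, SE 0.0704), 0.07 (10 ng/mL, SE 0.0752) and 0.15 (10 against 1 ng/mL, SE 0.0765). With it were PLA2G4A at 1 ng/mL (-0.06, SE 0.0710) and PTGES at 10 ng/mL (-0.09, SE 0.0828) and between the doses (-0.14, SE 0.0769). AKR1B1 was within 0.01 of 0 in all 3. SLCO2A1, HPGD and PTGER4 had too few counts to be tested in any of the 3. PTGS1 was tested only at 10 ng/mL against vehicle. DESeq2 called none of the genes in the comparisons of this paragraph, beside 0% of all genes in each but stromal 10 against 1 ng/mL (0.00814%).

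The difference of each treatment effect between cell types, given as stromal minus epithelial, was tested in 1 fit over 12 libraries. No gene was called of 9 tested in any of the 4, beside 0% of 13851 genes for glucose, 0.659% of 13357 for 1 ng/mL, 0% of 13308 for 10 ng/mL and 0.728% of 13323 for 10 against 1 ng/mL. DESeq2 called none of the genes either, beside 1.71%, 0.195%, 0% and 0.360% of all genes in the same order. At an unadjusted p under 0.05 there were 1, 1, 2 and 3 of the 9 genes, beside 7.65%, 6.69%, 4.05% and 6.60% of all genes. For glucose, SLCO2A1 was at 1.79 (SE 0.710, edgeR adjusted p = 0.650) and PTGER4 at 2.20 (SE 1.11, edgeR adjusted p = 0.709). For 1 ng/mL insulin, PTGS1 was at -1.24 (SE 0.532, edgeR adjusted p = 0.654) and PTGIS at -0.57 (SE 0.457, edgeR adjusted p = 0.919). Without replicate 2, whose stromal vehicle library held 3.17 CPM, PTGS1 was at 1.17. For 10 ng/mL, PTGS2 was at 0.25 (SE 0.0942) and PLA2G4A at 0.28 (SE 0.121), with an edgeR adjusted p of 1.00 for each. PTGS1 was called at 10 ng/mL without replicate 2 (2.45, edgeR adjusted p = 0.0388), where 166 of 13426 genes were. In the main fit it was at -0.10 there (SE 0.731). The stromal vehicle libraries of replicates 1 and 3 held only 3 and 2 counts of PTGS1. Between the doses, PTGS1 was at 1.04 (SE 0.353, edgeR adjusted p = 0.403), PTGS2 at 0.33 (SE 0.121, edgeR adjusted p = 0.469) and PLA2G4A at 0.23 (SE 0.0982, edgeR adjusted p = 0.636). PTGS2 was called there without replicate 1 (0.49, edgeR adjusted p = 0.00206; 36 of 13428 genes called) and without the low-count filter (0.35, edgeR adjusted p = 0.00491; 284 of 15641 genes called).

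Of 43 other genes of prostanoid synthesis, breakdown, transport and signalling, 32 were found by symbol. With vehicle, 11 were called higher in epithelial cells and 10 in stromal cells of 27 tested. The counts were 10 and 10 of 28 with 1 ng/mL insulin, 7 and 10 of 27 with 10 ng/mL insulin, 5 and 5 of 26 at 5 mM glucose and 5 and 6 of 27 at 50 mM glucose, beside the shares of all genes called given above (55.9%, 59.4%, 54.9%, 21.5% and 17.6%). Called higher in epithelial cells in all 5 conditions were the oxytocin receptor OXTR, thromboxane synthase TBXAS1, the organic anion transporter SLCO4A1, the nuclear receptor PPARG and the phospholipase PLA2G4F, with median log2 differences of 7.69, 6.37, 4.53, 3.10 and 3.01. Called higher in stromal cells in all 5 were the prostaglandin D synthase PTGDS, the prostaglandin D2 receptor PTGDR, the thromboxane receptor TBXA2R and the retinoid X receptor RXRA, with medians of -4.90, -4.27, -3.92 and -2.08. At 50 mM glucose 0 of these 9 genes were called without replicate 1, as was no other gene, and 5 of the 9 without the replicate block. In the insulin experiment TBXAS1 ranged from 8.15 to 20.4 CPM in epithelial and from 0 to 0.832 CPM in stromal libraries, and TBXA2R from 0.103 to 3.04 CPM and from 18.5 to 28.1 CPM.

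OXTR links oxytocin to prostaglandin release in the endometrium. It ranged from 76.7 to 107 CPM in epithelial libraries of the insulin experiment and was at 0 in 6 of 9 stromal libraries, including all 3 with 1 ng/mL insulin, where epithelial expression was at least 355-fold higher, taking 3 counts per library as the floor. In stromal cells at 50 mM glucose it was at 1.38 and 1.09 CPM in replicates 1 and 2 and at 42.2 CPM in replicate 3, the library with epithelial markers at 63.0%. No gene of the list was called in the 8 treatment comparisons. OXTR was called in the difference between cell types between 10 and 1 ng/mL (fitted log2 6.60, SE 0.764, edgeR adjusted p = 0.000961, a value that depends on the prior count as the 1 ng/mL stromal libraries were at 0). Without the replicate block the OXTR call was lost, as 0 of 13323 genes were called in that difference. Of the stromal libraries at 10 ng/mL, replicate 1 held 46 counts and the other two 0, and epithelial markers in replicate 1 were at 3.66% of their epithelial level against 0 and 0.355%.

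The protein-coding genes whose levels were most like each gene were ranked by Pearson's r of log2(CPM + 1) over the 15 libraries of the cell type with the higher mean, centred within each experiment. The points share replicate numbers, and r is given as a description. In epithelial libraries these were LITAF (r = 0.980) and IFNAR1 (0.957) for PLA2G4A, SPRY2 (0.939) and COX8A (0.930) for PTGS1, and CAPN2 (0.981) and ENSBTAG00000051373 (0.976) for AKR1B1. TMEM30B (0.961) and DHX32 (0.935) were most like SLCO2A1, UBE2C (0.979) and NDC80 (0.968) most like PTGER2, and ERRFI1 (0.974) and PARD6B (0.966) most like PTGER4. In stromal libraries they were FJX1 (0.924) and RAB43 (0.923) for PTGS2, KLHL24 (0.931) and TOR1AIP2 (0.929) for PTGES, SH3BP4 (0.980) and FHL1 (0.980) for PTGIS, and CHPF2 (0.808) and SNAPC2 (0.803) for HPGD.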

How the data were processed

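Raw counts per gene were deposited in 2 tables, 1 for each experiment. Per the methods of the study, the authors trimmed and filtered 75-base single-end reads with Cutadapt and a FASTX quality filter, used Rsubread for alignment to the Ensembl release 96 assembly, kept uniquely mapped reads and counted them with featureCounts; versions and the strand setting are not given in the sources used here. Gene symbols and types came from the deposited DESeq2 tables, whose fold changes and p-values were not used. The 10 genes and the lists were chosen with earlier results of these data known. Each comparison used the 6 libraries of its groups (12 for differences between cell types) with edgeR 4.0.16 in R 4.3.3 (filterByExpr, TMM, glmQLFit and glmQLFTest), the replicate number as a block after the paired design of the study, and Benjamini-Hochberg adjustment over all genes tested. Counts of calls cover protein-coding genes. The standard error is the log2 fold change divided by the root of F. In deviations from group means, same-numbered libraries correlated over 0.1 in 6 of 6 glucose and 17 of 18 insulin pairs within a cell type, and in 9 of 12 and 21 of 27 pairs between cell types. The pairs between cell types include pairs of unlike condition, which no fit compares directly. Within a condition, 3 of 3 pairs were over 0.1 at 50 mM glucose, with vehicle and with 1 ng/mL insulin. Only 1 of 3 was at 5 mM glucose (lowest r 0.0330) and with 10 ng/mL insulin (lowest r 0.0486). The study describes its sequenced cells as 3 biological replicates, but the labels do not say that separate animals gave the replicates of a group. If separate animals did not, p-values measure the spread between these libraries and not between animals. No pair of libraries of the same group agreed within sampling noise; pairs across groups were not compared. The script was tested on simulated data. In treatment comparisons and differences, genes with an unadjusted p under 0.05 and in any case the 2 with the smallest p are named; of the pathway list, genes called in all 5 conditions or in a treatment comparison. Alternatives were no block, DESeq2 1.42.0, RLE normalization, no low-count filter, leaving out each replicate number, and joint fits; 3 more were chosen after seeing the data. Sequences, transcript lengths and coordinates were not used here.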

Additional observations from a re-analysis of the deposited data

Results flagged for a closer look

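PLA2G4A was flagged because all replicate pairs pointed one way in 2 conditions of the insulin experiment and the other way in 1 of the glucose experiment. Every pair was higher in epithelial cells with vehicle (log2 difference of epithelial minus stromal 0.84) and with 1 ng/mL insulin (0.80), calls that were lost without the replicate block, and every pair was lower in epithelial cells at 5 mM glucose (-1.39), which was not called. The pairs were mixed in the other conditions, neither of which was called, with 0.54 at 10 ng/mL insulin (higher in 2 of 3 pairs) and -0.76 at 50 mM glucose (higher in 1 of 3 pairs). The difference between the experiments was not tested, and the experiment cannot be told apart from its set of libraries.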

How the results depend on the processing

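Of the group means, 100 of 100 stayed within 1 SD on TMM-scaled CPM. Of the numbers of genes called, 120 of 133 stayed within 1.5 times. In the 8 treatment comparisons and 4 differences the main fit called 0 genes. A number that stayed there was therefore 0 in both fits, and says little about stability. At 50 mM glucose the calls between cell types went from 4 to 0 with no replicate block. They were between 0 and 5 on leaving out replicates and 2 in the joint fit. They were also 2 with neither the block nor the stromal library of replicate 3 (chosen after seeing the data). At 5 mM they went to 7 in the joint fit. Over all protein-coding genes the calls at 50 mM moved too, from 2328 of 13235 to 1052 of 13235 with no block. They were 0 of 13351, 1962 of 13367 and 3785 of 13338 without replicates 1, 2 and 3. With neither the block nor that stromal library they were 3217 of 13516. The joint fits called 1975 of 13851 at 50 mM and 5325 of 13851 at 5 mM, where the main fit called 2856 of 13286. Leaving out replicates gave 0 to 1 genes for epithelial glucose, 0 to 2 for epithelial 10 ng/mL insulin, 0 to 1 for epithelial 10 against 1 ng/mL, and 0 to 1 for the differences between cell types at 10 ng/mL and between the doses. No low-count filter gave 1 gene for epithelial 10 ng/mL and 1 for the difference between the doses. Some signs turned, and not only for small values. On leaving out replicates, the cell type difference of AKR1B1 ran from -0.05 to 0.67 (vehicle), -0.02 to 0.53 (10 ng/mL; -0.01 without replicate 1) and -0.63 to 0.33 (5 mM), that of PTGS2 from -0.25 to 0.36 (10 ng/mL; -0.13 with no replicate block) and that of PTGES from -1.80 to 0.67 (5 mM). PTGES at 50 mM was 0.07 with neither the block nor that stromal library. PLA2G4A in epithelial glucose was -0.36 with neither the block nor the epithelial library of replicate 2 at 5 mM. On leaving out replicates, PTGIS in epithelial glucose ran from -0.03 to 1.78, PTGS2 in stromal 1 ng/mL from -0.20 to 0.01 and the PTGS1 difference at 1 ng/mL from -1.86 to 1.17. Without replicate 2, PTGS2 in epithelial glucose went from 0.39 to -0.57 and the PTGS1 difference at 10 ng/mL from -0.10 to 2.45. The causes were not tested. Pairing by replicate number follows the study's paired design, and the block changed no call of the 10 genes beyond those given. HPGD had at most 15 counts in any library.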
